A study of Mus musculus with 16 samples.

Results

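The 6 minichromosome maintenance genes Mcm2, Mcm3, Mcm4, Mcm5, Mcm6 and Mcm7 and the 3 replication protein A genes Rpa1, Rpa2 and Rpa3 were followed through RNA that did or did not carry captured abasic sites. All array probes whose platform gene symbol was one of these names were taken. They were 15 probes for 9 genes, out of 10794 passing probes and 7464 named genes with a passing probe. All 15 passed the detection filter, 12 of them were detected on all 16 arrays, and a probe counted as detected where its detection p-value was under 0.01.

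The RNA came from Neuro 2a, a mouse neuroblastoma cell line, labelled with the strain C57BL/6J. Cells were untreated or had been given hydrogen peroxide, at a dose and for a time not given in the sources used here. RNA of every group was treated with ARP, the aldehyde reactive probe, which carries biotin and binds the aldehyde left where a nucleotide has lost its base. Basal-total (untreated) and Ox-total (peroxide) were hybridised without selection, and Basal-ARP (untreated) and Ox-ARP (peroxide) after capture on streptavidin beads, with 4 arrays in each of the 4 groups. RNA captured from unlabelled samples was not analysed here, so carry-over on the beads was not measured. The labels do not say that the 4 arrays of a group came from separate cultures, so p-values measure the spread between these samples, which may be technical.

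The MCM proteins form a ring of 6 related subunits that is loaded onto DNA at replication origins and becomes the motor of the replicative helicase. Replication protein A is a heterotrimer of a large, a middle and a small subunit that coats the single-stranded DNA the helicase exposes, and it recruits repair and checkpoint proteins. Transcription of the MCM genes is known to depend on E2F factors in cycling cells. The messenger RNAs of both complexes are ordinary polyadenylated transcripts and can be oxidised like other RNA.

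The DNA before the start of these genes was searched for E2F-type letters, because the MCM genes are textbook E2F targets. RefSeq windows on GRCm38.p6, from 250 bases before to 50 bases after the annotated start, held a match to TTTGGCGC, TTTGCCGC, TTTCGCGC or TTTCCCGC on either strand in 4 of the 8 genes with a window (Mcm3, Mcm5, Mcm6 and Mcm7). Of all 32851 windows of the same length, 744, or 2.26%, held one. The windows of Mcm2, Rpa1, Rpa2 and Rpa3 held none of these letters, which says nothing about the factors themselves. Shown are Mcm6, with the most matches (3), and Mcm7 and Rpa3, with the largest differences among probes detected on every array. All 3 lie on the minus strand and are written 5′ to 3′ in the direction of the gene, with the matches in capitals.
Mcm6, chr1:128359656-128359955: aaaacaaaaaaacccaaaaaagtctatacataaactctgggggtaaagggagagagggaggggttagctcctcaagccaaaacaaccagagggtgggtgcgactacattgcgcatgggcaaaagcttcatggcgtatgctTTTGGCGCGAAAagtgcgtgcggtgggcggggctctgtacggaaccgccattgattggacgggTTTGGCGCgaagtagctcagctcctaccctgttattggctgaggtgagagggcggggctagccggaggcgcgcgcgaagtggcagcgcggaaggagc
Mcm7, chr5:138171834-138172133: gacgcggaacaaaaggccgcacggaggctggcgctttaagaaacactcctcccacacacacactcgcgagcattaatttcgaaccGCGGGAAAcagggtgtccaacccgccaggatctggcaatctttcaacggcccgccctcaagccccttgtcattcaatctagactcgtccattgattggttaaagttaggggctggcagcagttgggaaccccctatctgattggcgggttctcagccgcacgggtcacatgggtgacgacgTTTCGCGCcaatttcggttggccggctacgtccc
Rpa3, chr6:8259092-8259391: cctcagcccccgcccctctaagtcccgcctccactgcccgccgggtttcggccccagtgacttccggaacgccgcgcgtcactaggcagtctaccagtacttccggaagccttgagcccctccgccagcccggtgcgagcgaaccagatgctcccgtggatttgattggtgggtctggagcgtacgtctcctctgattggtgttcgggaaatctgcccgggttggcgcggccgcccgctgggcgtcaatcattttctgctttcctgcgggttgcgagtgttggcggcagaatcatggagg
In Mcm6 a pair of the matches overlap, 110 and 106 bases before the start, and the remaining one lies 47 bases before it. In Mcm7 one match lies 165 bases before the start and the other 16 bases after it, and a separate Mcm7 window on the same strand held none.

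The 16 arrays detected similar numbers of probes, while their mean signal differed more. Mean scanner signal ran from 328 to 533 per array, between 10351 and 11068 of 25697 probes were detected, and the lowest correlation between any pair of arrays was 0.948. Replicates 1 and 2 of every group lay on chip 1 and replicates 3 and 4 on chip 2, while within a chip no position was shared between groups, so a group and its positions cannot be told apart. Of 14 neuroblastoma markers 10 had a passing probe, among them Th, Dbh, Phox2a and Hand2, and Nefl, Nefm and Tubb3 were among those without one. Of markers of other cells, 1 of 6 fibroblast markers (Dcn) passed. Of the 5 glial markers matched to a probe 1 passed (Mbp), and of the 3 blood and macrophage markers matched to a probe 0 did. Levels below are log2 normalized intensities. Every array was given the same distribution, so a difference is one of relative representation among transcripts. Fewer cells carrying a transcript and less of it per cell cannot be told apart in bulk RNA.

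**Figure D1:**
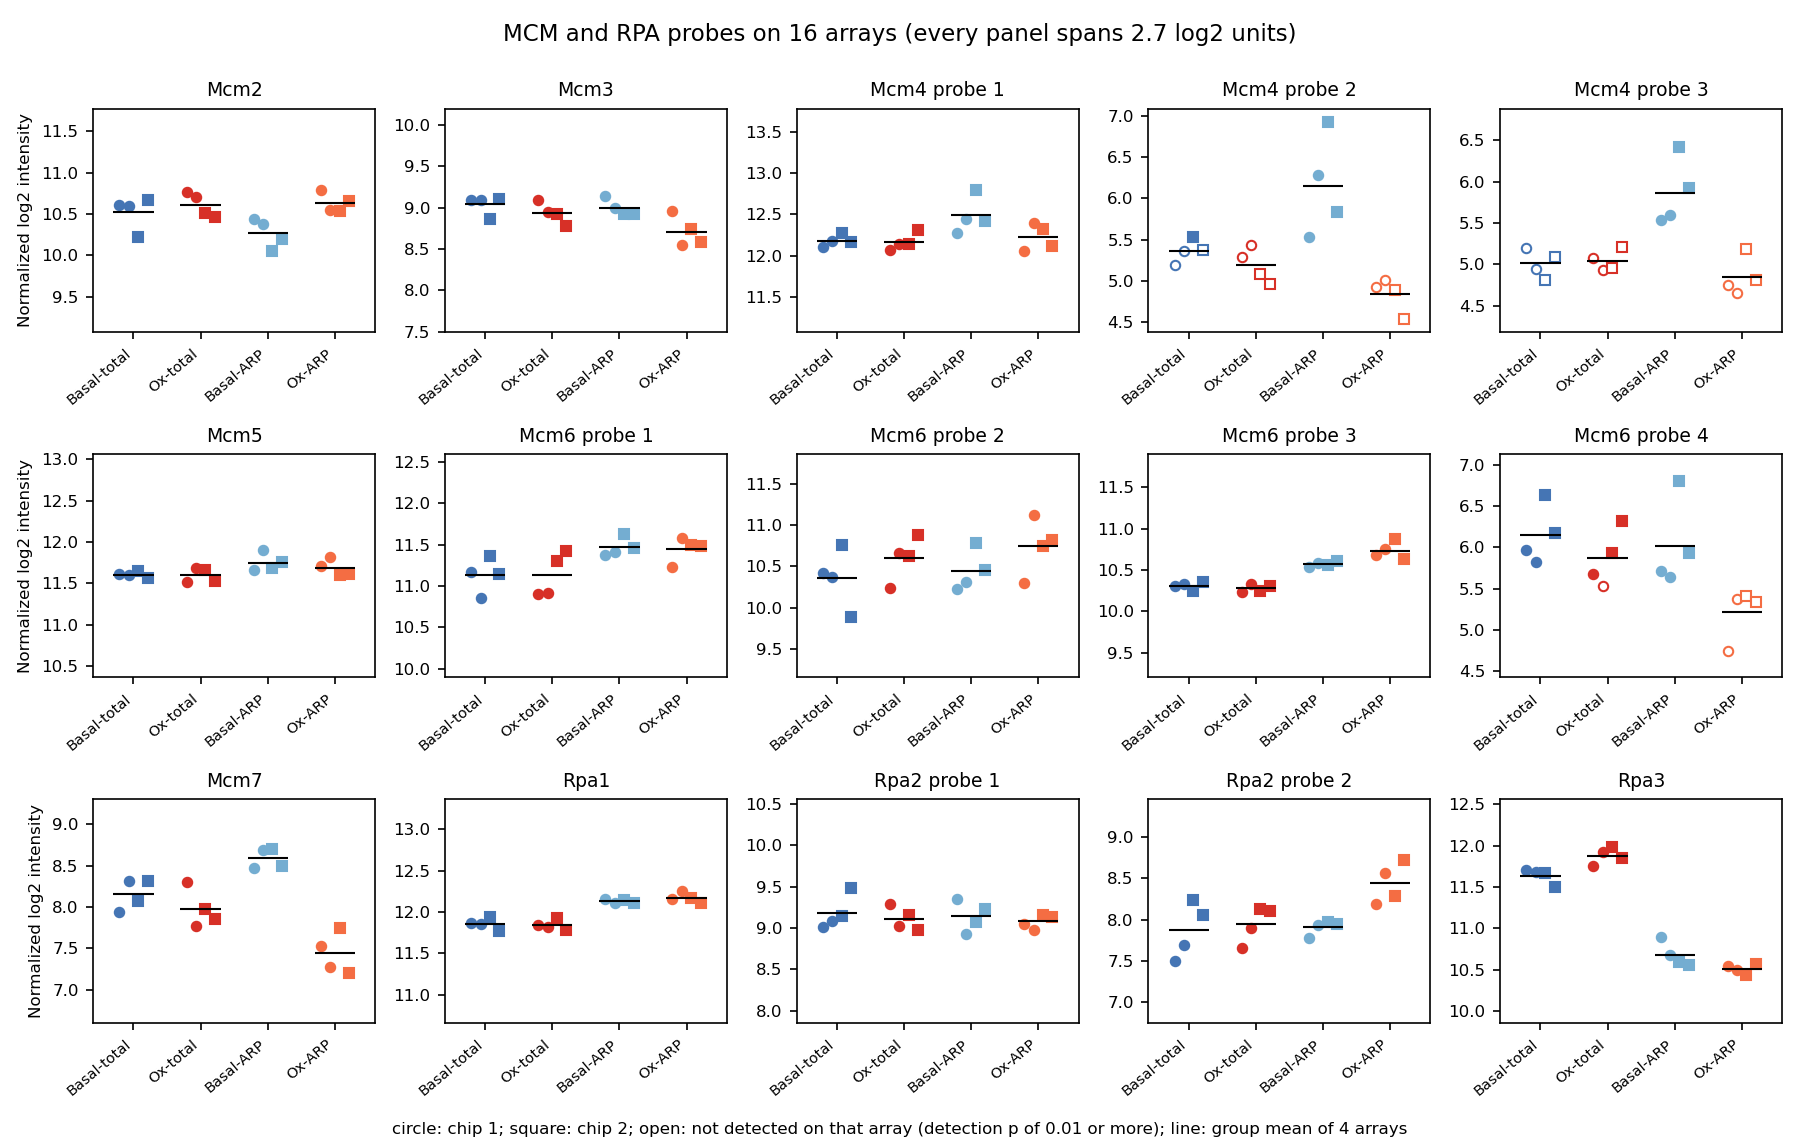
Each panel shows 1 MCM or RPA probe on the 16 arrays, as normalized log2 intensity on the vertical axis (every panel spans the same number of log2 units) and the 4 groups on the horizontal axis, with a line at the mean of 4 arrays. Rpa3 drops in both captured groups, from 11.64 to 10.68 without peroxide and from 11.88 to 10.51 with it, and Mcm7 is highest in Basal-ARP (8.59) and lowest in Ox-ARP (7.44).

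In unselected RNA no MCM or RPA probe passed the test after peroxide. In limma's moderated test with Benjamini-Hochberg adjustment over all 10794 probes, 0 of 15 were called at an adjusted p under 0.05, where the background was 0.25% of probes in either direction (27 probes), and 1 of the 15 had an unadjusted p under 0.05 (1089 of all probes did). That 1 probe was Rpa3, whose Ox-total arrays all lay above its Basal-total arrays with a difference of 0.24 ± 0.090 (SE) on the log2 scale and an adjusted p of 0.365. The 15 differences had a median of -0.02, against 0.01 over all probes, and the standard error of a difference had a median of 0.12 over all probes. The 95% interval was narrowest for Rpa1, -0.17 to 0.14, and widest for the dimmest Mcm6 probe, -0.79 to 0.23.

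Mcm4 probes 2 and 3 were detected on all 4 arrays in Basal-ARP alone and passed the detection filter only through it. They had to be higher there, so they are described by their levels, and the counts below are also given over the other 13 probes, a choice made after seeing the data.

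After capture from untreated cells 7 of the 15 probes, from 5 genes, passed the test. Of the 13 probes, Mcm4 probe 1, Mcm6 probe 3, Mcm7 and Rpa1 were higher in Basal-ARP than in Basal-total, 4 in all, against a background of 16.7% of all probes higher. Rpa3 alone was lower, against a background of 15.2% lower. The median over the 13 was 0.08, against 0.02 over all probes. With median scaling of the arrays in place of quantile normalization, the split of the 15 was 3 higher and 2 lower, in place of 6 and 1. Over all 10794 probes that split was 991 higher and 1580 lower. Same-numbered arrays of these 2 groups deviated together. With the replicate number as a block 5 of the 13 were higher and 2 lower, Mcm6 probe 1 and Mcm2 being added. The block also raised the calls over all 10794 probes, to 2396 higher and 2175 lower.

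After capture from peroxide-treated cells 5 of the 15 probes, from 5 genes, passed the test. Higher in Ox-ARP than in Ox-total were Mcm6 probe 3, Rpa1 and Rpa2 probe 2, against a background of 13.6% of probes higher. Lower were Mcm7 and Rpa3, against a background of 13.4% lower. With median scaling 1 probe was higher and 2 were lower, where 1459 and 1086 of all 10794 probes were. The median over the 13 was 0.06, against 0.03 over all probes. The numbers paired the arrays here too, and with the replicate block 4 were higher and 3 lower, Mcm6 probes 1 and 4 being added. Over all 10794 probes the block gave 2060 higher and 1867 lower.

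Between the captured fractions 7 of the 15 probes, from 6 genes, passed the test. Without the Mcm4 probes that had to be lower in Ox-ARP, 3 of 13 were lower than in Basal-ARP (Mcm3, Mcm6 probe 4 and Mcm7), where 15.4% of all probes were lower. Mcm6 probe 4 passed the detection filter only through the untreated groups, so no difference is read from its call. With only the 12 probes detected on all 16 arrays kept, 2 were lower, as were 1449 of all 9588 such probes. Higher were Mcm2 and Rpa2 probe 2, where 13.8% of all probes were higher. With median scaling the split of the 15 was 2 higher and 3 lower in place of 2 and 5. Without normalization between arrays it was 1 higher and 3 lower. Over all 10794 probes those splits were 2339 higher and 812 lower, and 1063 higher and 252 lower. The median over the 13 was -0.07, against 0.02 over all probes. The 3 capture and peroxide comparisons share groups of arrays, so their counts are not independent of one another. A block for the chip, fixed or random, ended no call of these probes, and the calls it added outside the dim Mcm4 probes are given with each probe.

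**Figure D2:**
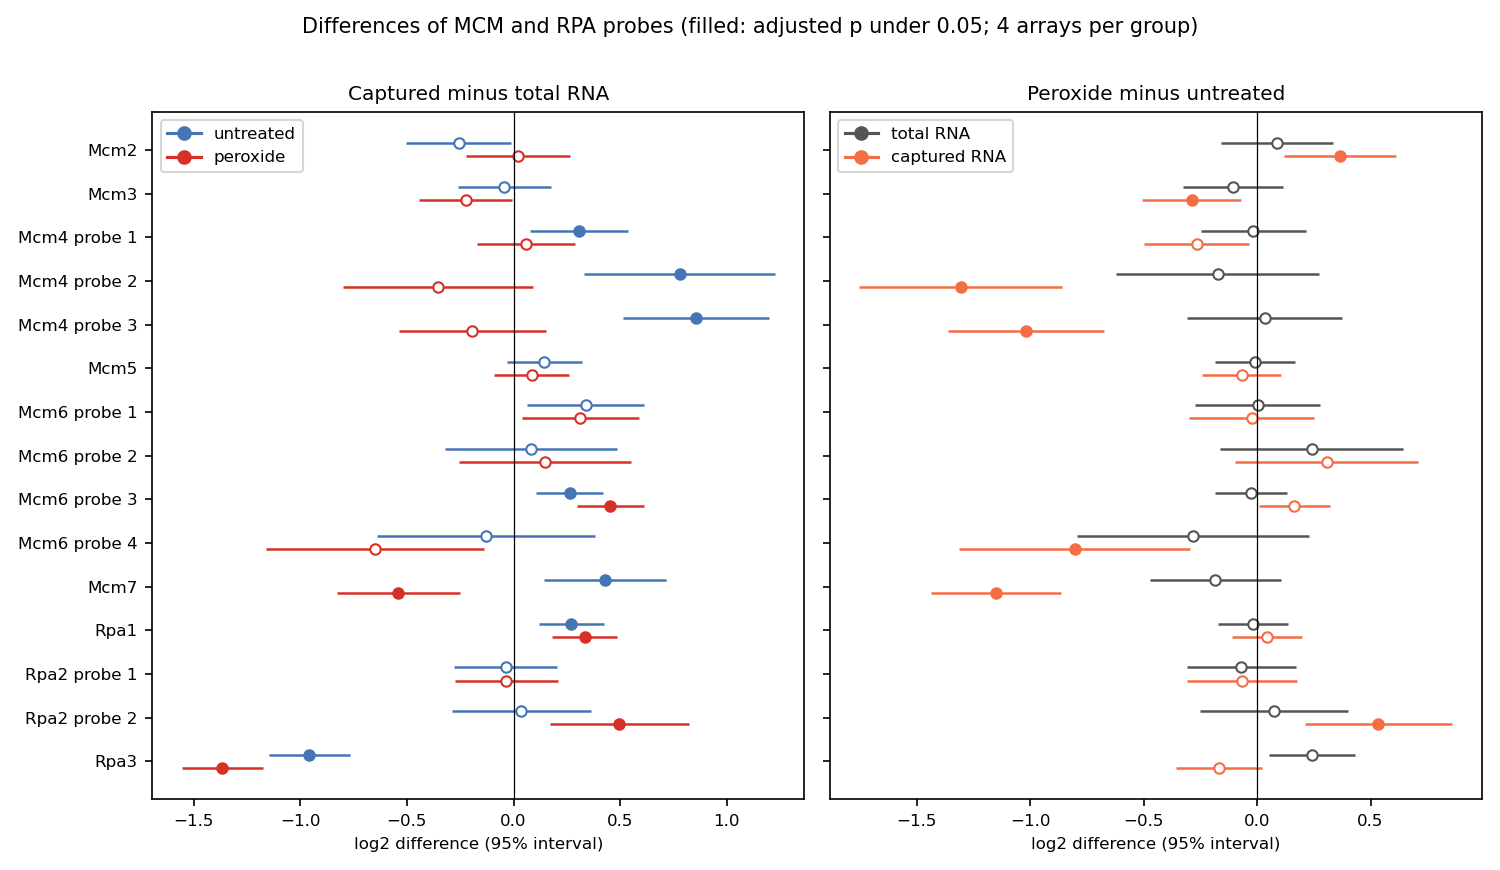
Differences of the 15 probes on the log2 scale (horizontal axis) with 95% intervals, captured minus total RNA on the left and peroxide minus untreated on the right. Filled points have an adjusted p under 0.05: Rpa3 lies far to the left in both capture comparisons (-0.96 and -1.37), Mcm7 is on opposite sides of 0 in them (0.43 and -0.54), and all total RNA points on the right are open. Mcm4 probes 2 and 3 passed the filter only through Basal-ARP, so their filled points show a difference that the filter required. Mcm6 probe 4 passed it only through the untreated groups.

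Rpa3, the small subunit of the trimer, showed the largest capture difference of the probes detected on all arrays. Its levels in Basal-total replicates 1 to 4 were 11.70, 11.68, 11.66 and 11.50, and in Basal-ARP 10.89, 10.68, 10.59 and 10.55. In Ox-total they were 11.76, 11.92, 11.98 and 11.85, and in Ox-ARP 10.54, 10.50, 10.43 and 10.57. All 8 captured arrays lay below all 8 total arrays. Without peroxide Rpa3 was 0.96 ± 0.090 (SE) lower on the log2 scale after capture, a 1.94-fold difference (limma adjusted p = 1.03e-06), and 1.17% of all probes had a difference as low. With peroxide the fold was 2.58 (log2 difference -1.37, 95% interval -1.56 to -1.18, adjusted p = 1.57e-08), and 0.25% of all probes had one as low.

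The chips gave alike values for Rpa3, -0.91 on chip 1 and -1.01 on chip 2 without peroxide, and -1.32 and -1.41 with it. Both Rpa3 calls held under all 32 alternatives, in ranges of -1.10 to -0.91 and -1.44 to -1.32. The capture difference was 0.41 ± 0.13 (SE) larger in size with peroxide, which did not pass the interaction test (adjusted p = 0.0895). It passed narrowly with the chip as a fixed or random block (adjusted p = 0.0472 and 0.0478), with the replicate block (0.0494) and with array weights (0.043). Within captured RNA the peroxide difference of Rpa3 was -0.17, with an interval of -0.36 to 0.02 and an adjusted p of 0.172.

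Rpa1, the large subunit that carries the main DNA-binding domains, went the opposite way. Basal-total held 11.86, 11.85, 11.94 and 11.77, and Basal-ARP 12.16, 12.11, 12.14 and 12.11. Ox-total held 11.84, 11.82, 11.92 and 11.78, and Ox-ARP 12.16, 12.26, 12.17 and 12.11. All captured arrays lay above all total arrays, with differences of 0.27 ± 0.073 (SE, adjusted p = 0.00918) without peroxide and 0.33 ± 0.073 (adjusted p = 0.00279) with it. Both calls were lost with median scaling (differences of 0.17 and 0.27), without normalization between arrays (0.07 and 0.23), and within each chip alone, where the differences were 0.27 on both chips without peroxide, and 0.38 and 0.29 with it.

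Rpa2, the middle subunit and the one phosphorylated under replication stress, had 2 probes that disagreed. Probe 1, the brighter, ranged from 8.93 to 9.48 over all 16 arrays, and its differences of -0.04, -0.03 and -0.07 for untreated capture, peroxide capture and peroxide within captured RNA passed no test. Probe 2 held 7.49, 7.70, 8.24 and 8.06 in Basal-total and 7.65, 7.90, 8.13 and 8.11 in Ox-total. It held 7.78, 7.93, 7.98 and 7.94 in Basal-ARP and 8.19, 8.57, 8.29 and 8.72 in Ox-ARP, where every array lay above every array of the other groups but for Basal-total replicate 3. The difference was 0.49 ± 0.15 (SE) from Ox-total (adjusted p = 0.0243) and 0.53 ± 0.15 from Basal-ARP (adjusted p = 0.0158).

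The Ox-ARP minus Ox-total call of Rpa2 probe 2 was lost on leaving out Ox-total replicate 1 or 2 or Ox-ARP replicate 2 or 4 (adjusted p of 0.0548 to 0.0885), and the Ox-ARP minus Basal-ARP call on leaving out Ox-ARP replicate 4 (adjusted p = 0.0607). The former was also lost with median scaling (adjusted p = 0.0618), without normalization between arrays (0.367), without the detection filter (0.0602) and on chip 2 (0.176). The latter was also lost without normalization (0.14), with the authors' processed table (0.0511) and on chips 1 and 2 alone (0.0675 and 0.0579). The chips gave 0.60 and 0.39 against Ox-total and 0.53 and 0.54 against Basal-ARP. The levels of the 2 Rpa2 probes had a Pearson correlation of -0.12 over the 16 arrays. The sources used here do not give where the probes lie on the transcript.

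Mcm7, a subunit of the catalytic core of the ring, was the only gene here with called capture differences of opposite sign. Its levels were 7.94, 8.32, 8.08 and 8.31 in Basal-total and 8.47, 8.69, 8.70 and 8.49 in Basal-ARP. They were 8.31, 7.77, 7.97 and 7.86 in Ox-total and 7.53, 7.28, 7.74 and 7.20 in Ox-ARP. In untreated cells all captured arrays lay above all total arrays, and in peroxide-treated cells all lay below. The capture difference was 0.43 ± 0.14 (SE, adjusted p = 0.0237) without peroxide and -0.54 ± 0.14 (adjusted p = 0.0072) with it. Neither call held without normalization between arrays (0.32, adjusted p = 0.407, and -0.51, adjusted p = 0.177) or on a single chip. The chips gave 0.45 and 0.40 without peroxide (adjusted p = 0.149 and 0.177) and -0.64 and -0.44 with it (adjusted p = 0.064 and 0.178).

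The change of that difference with peroxide passed the interaction test, at -0.97 ± 0.19 (SE, adjusted p = 0.0148). Over the 13 probes Mcm7 was the 1 that passed it, where 2.52% of all probes passed in either direction. Ox-ARP lay 2.22-fold below Basal-ARP for Mcm7 (log2 difference -1.15 ± 0.14, adjusted p = 2.69e-05), and 0.528% of all probes had a difference as low. This call held under all 32 alternatives, with -1.18 on chip 1 and -1.13 on chip 2. Each chip alone gave the interaction the same sign, -1.09 and -0.85, without a call (adjusted p of 0.224 and 0.351), and the interaction was not called without normalization between arrays. The untreated capture call of Mcm7 was also lost without the detection filter (adjusted p = 0.0517) and on leaving out Basal-total replicate 1 or Basal-ARP replicate 2 or 3, with adjusted p of 0.0573 to 0.0815.

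Mcm4, another subunit of the catalytic core, had 3 probes numbered by brightness. Probe 1 held 12.10, 12.17, 12.27 and 12.17 in Basal-total and 12.27, 12.45, 12.80 and 12.42 in Basal-ARP. It held 12.07, 12.14, 12.13 and 12.30 in Ox-total and 12.05, 12.39, 12.32 and 12.11 in Ox-ARP. Its untreated capture difference was 0.31 ± 0.11 (SE, adjusted p = 0.0406), and its groups all but met at 12.27. This call was lost under 14 of 32 alternatives, among them the removal of Basal-total replicate 1, 2 or 4 or Basal-ARP replicate 2, 3 or 4 (adjusted p of 0.0563 to 0.135), and without Basal-ARP replicate 3 the difference was 0.20. Within captured RNA the peroxide difference was -0.27 (adjusted p = 0.0776), and it passed with the chip as a fixed or random block (0.0483 and 0.0488).

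The dim Mcm4 probes were detected on all 4 Basal-ARP arrays and on hardly any other. Probe 2 held 5.53, 6.28, 6.93 and 5.84 in Basal-ARP and 4.92, 5.01, 4.89 and 4.54 in Ox-ARP, where it was not detected, and it was detected on 1 Basal-total and 0 Ox-total arrays. Probe 3 held 5.54, 5.59, 6.42 and 5.92 in Basal-ARP and 4.76, 4.65, 5.18 and 4.82 in Ox-ARP, and it was detected on no array of the other 3 groups. In each case every Basal-ARP array lay above every Ox-ARP array. For a group without detection only a bound can be given, from the lowest signal among detected probes on each of its arrays. Basal-ARP was at least 1.55-fold above Ox-ARP for probe 2 and at least 1.28-fold for probe 3, and at least 1.26-fold above Basal-total for probe 3. These folds are descriptions with no test, because the filter kept both probes for their level in Basal-ARP.

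Without Basal-ARP replicate 3, the brightest of its group, the mean of Basal-ARP stood less far above Basal-total, with a difference of 0.52 for probe 2 in place of 0.78. Over the 16 arrays the Mcm4 probes correlated with one another at 0.77, 0.77 and 0.82. The filter kept probes 2 and 3 for their level in Basal-ARP, so no likeness is read from these values.

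Mcm6, the third subunit of the catalytic core, had 4 probes. Probe 3 held 10.30, 10.33, 10.24 and 10.35 in Basal-total and 10.53, 10.58, 10.57 and 10.60 in Basal-ARP. It held 10.24, 10.33, 10.25 and 10.31 in Ox-total and 10.68, 10.75, 10.87 and 10.64 in Ox-ARP. All captured arrays lay above all total arrays, by 0.26 ± 0.074 (SE, adjusted p = 0.0121) without peroxide and 0.45 ± 0.074 (adjusted p = 0.000283) with it. The first call was lost with median scaling (0.23), without normalization between arrays (0.14), and on each chip alone (0.24 and 0.29), and the second without normalization (0.42) and on chip 2 (0.43 and 0.48 on the chips).

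The other Mcm6 probes gave less. Probe 1, the brightest, was 0.34 ± 0.13 (SE) higher after capture without peroxide and 0.31 ± 0.13 with it, and neither difference passed (adjusted p = 0.057 and 0.087). With the replicate block both did (0.0188 and 0.0314), and likewise with the chip as a fixed block (0.015 and 0.0258). Probe 2 ranged from 9.89 to 11.13 over the arrays and passed no test. Probe 4, the dimmest, held 5.71, 5.64, 6.81 and 5.93 in Basal-ARP and 4.75, 5.37, 5.41 and 5.34 in Ox-ARP, where it was not detected, which gives at least a 1.42-fold difference (log2 difference -0.80 ± 0.24, adjusted p = 0.0196). That call was lost with median scaling, without normalization or the detection filter, and on chip 1, and on leaving out Basal-ARP replicate 3 or Ox-ARP replicate 1 (adjusted p of 0.0661 to 0.0673). The chips gave -0.61 and -0.99. Probe 4 passed the detection filter only through Basal-total and Basal-ARP, so no peroxide effect is read from this call. Against Ox-total, Ox-ARP was 0.65 lower for probe 4 without passing (adjusted p = 0.0551), and with the replicate block this passed (0.00664), as with the chip as a fixed block (0.00685). The levels of Mcm6 probes 3 and 4 correlated at -0.51 over the arrays, with probe 4 not detected on any Ox-ARP array.

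Of Mcm2, Mcm3 and Mcm5, the regulatory side of the ring, Mcm2 and Mcm3 had a called difference, and only for peroxide within captured RNA. Mcm2 held 10.61, 10.60, 10.23 and 10.67 in Basal-total, 10.77, 10.71, 10.51 and 10.47 in Ox-total, 10.45, 10.38, 10.05 and 10.20 in Basal-ARP and 10.80, 10.55, 10.53 and 10.66 in Ox-ARP. Captured RNA held more Mcm2 after peroxide, by 0.36 ± 0.12 (SE, adjusted p = 0.0262), with no overlap between Ox-ARP and Basal-ARP. The chips gave 0.26 and 0.47, neither called, and the call was lost without Basal-ARP replicate 3 or 4 or Ox-ARP replicate 1 or 4 (adjusted p of 0.0602 to 0.0832). Against Basal-total, Basal-ARP was 0.26 lower without passing the test (adjusted p = 0.101), and with the replicate block it passed (0.0256), as with the chip as a fixed block (0.0394).

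Mcm3 held 9.15, 8.99, 8.92 and 8.93 in Basal-ARP and 8.96, 8.55, 8.74 and 8.58 in Ox-ARP, groups that overlap. The difference was -0.29 ± 0.10 (SE, adjusted p = 0.0451), and it lost its call under 18 of 32 alternatives, among them 12 of 16 that left out 1 array (adjusted p of 0.0511 to 0.132), with -0.31 and -0.26 on the chips. The 4 arrays whose removal kept the call were Basal-total replicate 3, Ox-total replicates 1 and 4 and Ox-ARP replicate 1. Mcm5 stayed between 11.52 and 11.91 on all 16 arrays, and its differences of 0.14 ± 0.083, 0.09 ± 0.083 and -0.07 ± 0.083 (SE) for untreated capture, peroxide capture and peroxide within captured RNA passed no test (adjusted p = 0.199, 0.483 and 0.574).

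The order of the group means differed between members. For Rpa3 it ran Ox-total, Basal-total, Basal-ARP, Ox-ARP from high to low, and neither the Ox-total and Basal-total step nor the Basal-ARP and Ox-ARP step passed the test. For Mcm7 it ran Basal-ARP, Basal-total, Ox-total, Ox-ARP, and only the step between the total groups did not pass. For Rpa1 and Mcm6 probe 3 both captured groups lay above both total groups, with no called step inside either pair. As a description over 16 arrays that fall into 4 groups, the levels of Rpa3 correlated at -0.94 with those of Mcm6 probe 3 and at -0.92 with those of Rpa1, Mcm6 probe 3 and Rpa1 correlated at 0.88, and Mcm7 and Mcm4 probe 2 at 0.82. Mcm4 probe 2 passed the filter only through Basal-ARP, where Mcm7 was also highest, so no likeness is read from that last value.

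The genes whose levels followed Rpa3 most closely, of 7455 compared by Pearson correlation over the 16 arrays, were Rnu6 (0.987), Ndufa2 (0.985), Wfdc12 (0.985), Atp5l (0.982) and Uqcrh (0.98). Ndufa2, Uqcrh and Atp5l encode subunits of respiratory complex I, complex III and ATP synthase. Ndufa2 went from 11.99 in Basal-total to 10.85 in Basal-ARP, and Uqcrh from 12.63 to 11.65. The mean over Mcm2 to Mcm7, each by its brightest probe, was followed most closely by Hnrnpk (0.958), Ctps2 (0.951), Ncoa4 (0.946), D16Ertd472e (0.94) and Dzip3 (0.931). Hnrnpk, which encodes an RNA-binding protein, stood at 10.74 in Basal-total, 11.35 in Basal-ARP, 10.48 in Ox-total and 10.37 in Ox-ARP. The points share their 4 groups and the normalization, and the genes were picked as the closest. Mcm2 to Mcm7 did not all move together, so their mean is no shared course. Mcm2 correlated at -0.85 with Mcm4 probe 1 and at -0.54 with Mcm7, while Mcm3 and Mcm7 correlated at 0.71.

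Rpa3 and Mcm7 are the shortest of the 9 genes, with genomic lengths, introns included, of 3.21 and 7.53 kb on GRCm38.p6, while Rpa1 is the longest at 48.2 kb. The capture difference moved weakly with gene length over 7462 genes, with Spearman correlations of 0.24 without and 0.16 with peroxide. Genes in the shortest of 4 equal bins by length, up to 9.42 kb, had median capture differences of -0.13 and -0.07, and Rpa3 lay below them at -0.96 and -1.37. Over the 9 genes, each by its brightest probe, the correlation was 0.25 without peroxide and 0.88 with it. When Rpa3 was left out it was -0.07 without peroxide, so the former rests on that gene, and 0.83 with peroxide. Rpa2, at 10.4 kb, entered by probe 1, with -0.03 in peroxide capture. Its probe 2 stood at 0.49 there, above every other member value, so the correlations with peroxide depend on which probe is taken. Genes are not independent replicates, and the part of length in the capture differences was not tested.

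**Figure D3:**
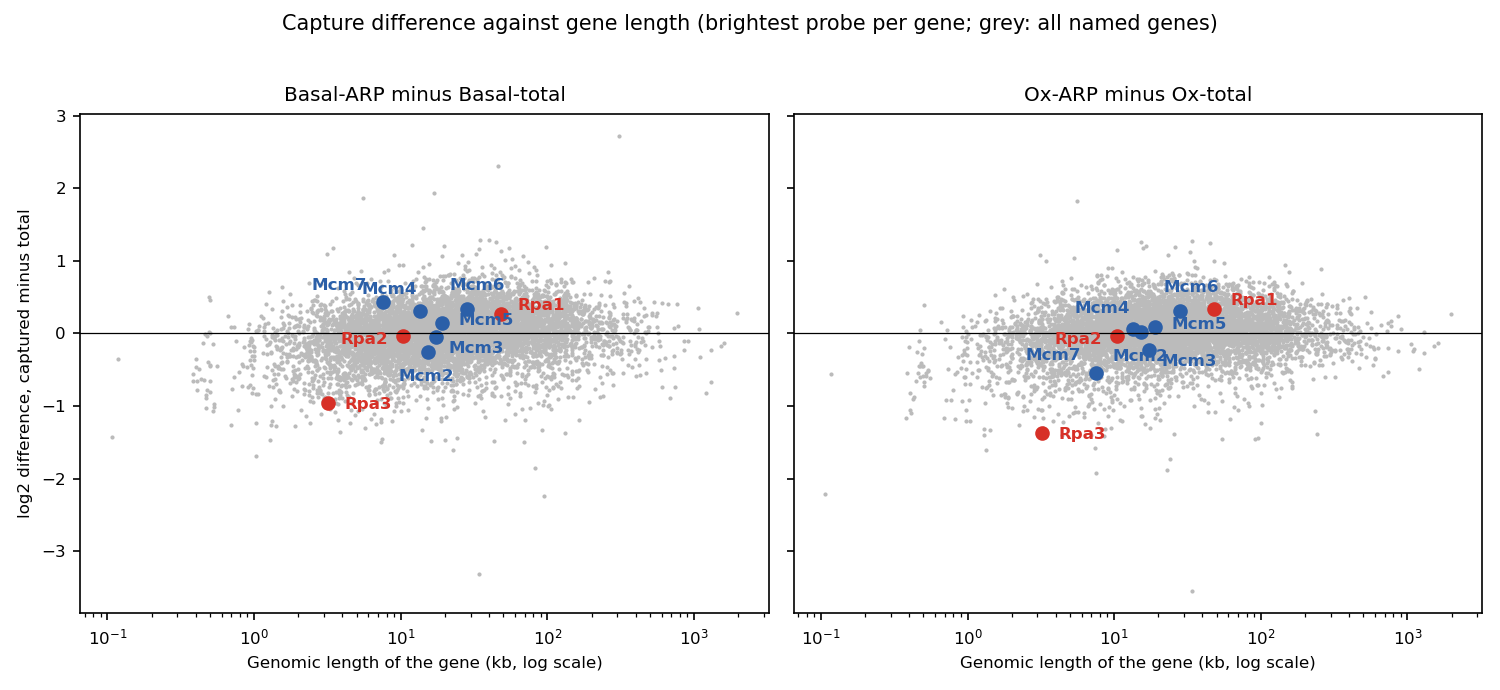
Capture difference on the log2 scale (vertical axis) against the genomic length of the gene in kb (horizontal log axis) for all named genes in grey, MCM genes in blue and RPA genes in red, without peroxide on the left and with it on the right. Rpa3, the shortest member at 3.21 kb, is lowest in both panels, and Mcm7 moves from 0.43 on the left to -0.54 on the right.

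Of 96 other DNA replication genes in 8 lists, 74 had a passing probe. After capture from untreated cells 18 of the 74 were higher and 8 lower, where 16.2% of all genes were higher and 15.9% lower. With median scaling the split was 6 higher and 7 lower, and over all 10794 probes 991 higher and 1580 lower. Capture from peroxide-treated cells gave 8 higher and 3 lower, against 13.7% and 12.4% of all genes. With the replicate block it gave 12 higher and 8 lower, and over all 10794 probes 2060 and 1867. Within captured RNA peroxide gave 6 higher and 12 lower, against 13.9% and 13.3%. With median scaling it gave 10 higher and 2 lower, and over all 10794 probes 2339 higher and 812 lower. In unselected RNA 0 of 74 were called (0.241% of all genes), and in the interaction 1 was (1.86% of all genes). The medians over the 74 genes were 0.08, 0.01 and 0.03 in those 3 comparisons of captured RNA, against 0.01, 0.03 and 0.03 over all genes.

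Origin licensing genes recognise origins and load the MCM ring. After capture from untreated cells they gave 4 higher and 1 lower of 8 (16.2% and 15.9% of all genes). One of the 4 was Orc2, a subunit of the origin recognition complex, which was detected on all 8 captured arrays but on only 1 Basal-total and 2 Ox-total arrays. It passed the filter only through the captured groups, so no difference is read from it. Orc3, another subunit, was higher by 0.33 ± 0.091 (SE). With peroxide capture Orc6 was lower by 0.28, and within captured RNA Cdt1, the loader of the ring, fell by 0.36 ± 0.074. Of the genes outside the hexamer that share the name, only Mcm10 had a passing probe, with 0.21 ± 0.072 for untreated capture (adjusted p = 0.0309) and -0.21 ± 0.072 for peroxide within captured RNA (adjusted p = 0.033). Without normalization between arrays the latter was 0.003, so its sign turned.

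Genes that turn the loaded ring into a working helicase gave 1 higher (Wdhd1, 0.50 ± 0.13) and 1 lower (Gins4, -0.35 ± 0.091) of 8 after untreated capture, and 0 of 8 after peroxide capture. Of all genes 16.2% were higher and 15.9% lower in the former, and 13.7% and 12.4% in the latter. Cdc45 and Dbf4 had the smallest p in the latter, with differences of 0.22 and 0.20 and an adjusted p of 0.219 for each. Within captured RNA Cdc7, the kinase that activates the helicase, fell by 0.38 ± 0.082 after peroxide, and Gins4 rose by 0.40 ± 0.091. Among 10 polymerase and primase genes, Pola2 fell by 0.43 ± 0.10 with untreated capture, Pold2 rose by 0.56 ± 0.15 with peroxide within captured RNA, and no gene passed in peroxide capture, where Prim1 had 0.53 (adjusted p = 0.0503) and Pola2 -0.26 (0.0676). With the replicate block both of the latter passed (0.00878 and 0.017). Pole4 had 0.19 (adjusted p = 0.108) in untreated capture.

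The clamp and lagging strand list gave 2 higher and 1 lower of 11 after untreated capture (16.2% and 15.9% of all genes). Top2a, the topoisomerase that untangles replicated DNA, rose by 0.71 ± 0.090 (SE, adjusted p = 2.21e-05) with untreated capture and fell by 0.71 ± 0.090 (adjusted p = 4.52e-05) with peroxide within captured RNA. It was the 1 gene of the 74 called in the interaction (-0.72 ± 0.13, adjusted p = 0.00994). Fen1, the flap nuclease, fell by 0.27 with untreated capture, the clamp loader genes Rfc1 and Rfc2 rose by 0.36 and 0.48 with peroxide capture, and Atad5, the clamp unloader, fell by 0.36 with peroxide within captured RNA.

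RPA partners and checkpoint genes gave 7 higher and 2 lower of 18 after untreated capture (16.2% and 15.9% of all genes). After peroxide capture they gave 2 higher and 1 lower (13.7% and 12.4% of all genes). Rad1, part of the checkpoint clamp, and Etaa1, which binds RPA, rose by 0.85 ± 0.12 and 0.60 ± 0.10 with untreated capture. Rfwd3, a ubiquitin ligase that acts on RPA, rose by 0.57 ± 0.11 with peroxide capture, and Xpa, a repair factor that binds RPA, fell by 0.42 ± 0.091. Within captured RNA 5 of the 18 were lower after peroxide and 0 higher, against 13.3% and 13.9% of all genes. Among the 5 were the helicase gene Wrn (-0.74 ± 0.11) and Primpol (-0.47 ± 0.084), a primase that restarts forks.

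E2F and Rb family genes gave 2 higher and 1 lower of 10 after untreated capture (16.2% and 15.9% of all genes). After peroxide capture they gave 2 higher (13.7% of all genes). E2f4 fell by 0.70 ± 0.13 with untreated capture and rose by 0.49 ± 0.13 with peroxide within captured RNA, while Rb1 rose by 0.40 and Rbl1 fell by 0.57 in the respective comparisons. E2f1 and Tfdp2 rose by 0.43 and 0.41 with peroxide capture. Of 8 genes of nucleotide supply, Tyms, the thymidylate synthase, fell by 0.43 ± 0.097 and 0.52 ± 0.097 with untreated and peroxide capture. Rrm2b rose by 0.45 with untreated capture and fell by 0.42 with peroxide within captured RNA, Samhd1 rose by 0.30 with peroxide capture, and Rrm1, a ribonucleotide reductase subunit, rose by 0.50 within captured RNA.

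Several calls among these replication genes depended on 1 array. On leaving out 1 array, Fen1 lost its call without Basal-total replicate 1 or Basal-ARP replicate 2 (-0.24 to -0.23), and Rb1 without replicates 1, 2 or 4 of Basal-total or 2, 3 or 4 of Basal-ARP (0.27 to 0.41). Mcm10 lost it in untreated capture without replicates 1, 3 or 4 of Basal-total or 2 or 4 of Basal-ARP (0.20 to 0.21), and within captured RNA without replicates 2, 3 or 4 of Basal-ARP or 1, 3 or 4 of Ox-ARP. Samhd1 lost it without Ox-total replicate 1 or Ox-ARP replicate 3 or 4 (0.25 to 0.27), and Tfdp2 without Ox-total replicate 1 or 2 or Ox-ARP replicate 2 (0.33 to 0.39). Orc6 lost it without Ox-total replicate 2 (-0.25), and Atad5 without replicates 2, 3 or 4 of Basal-ARP or 1, 2 or 4 of Ox-ARP (-0.37 to -0.27). All of these were also lost with median scaling and without normalization between arrays, where the untreated capture value of Mcm10 was 0.15 and 0.06. Both settings also ended the calls of Cdt1, Cdc7, Wdhd1, Orc3, Rbl1 and Primpol, and of Rrm2b in each comparison. With median scaling Cdt1 was -0.19 and Cdc7 -0.21 (adjusted p = 0.148 and 0.21). Without normalization the only named calls kept were those of E2f4, and of Gins4 and Pold2 within captured RNA. Over 32 alternatives Atad5 lost its call in 13, Rb1 in 12, Mcm10 in 11 for each comparison, and Fen1 and Samhd1 in 7.

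**Figure D4:**
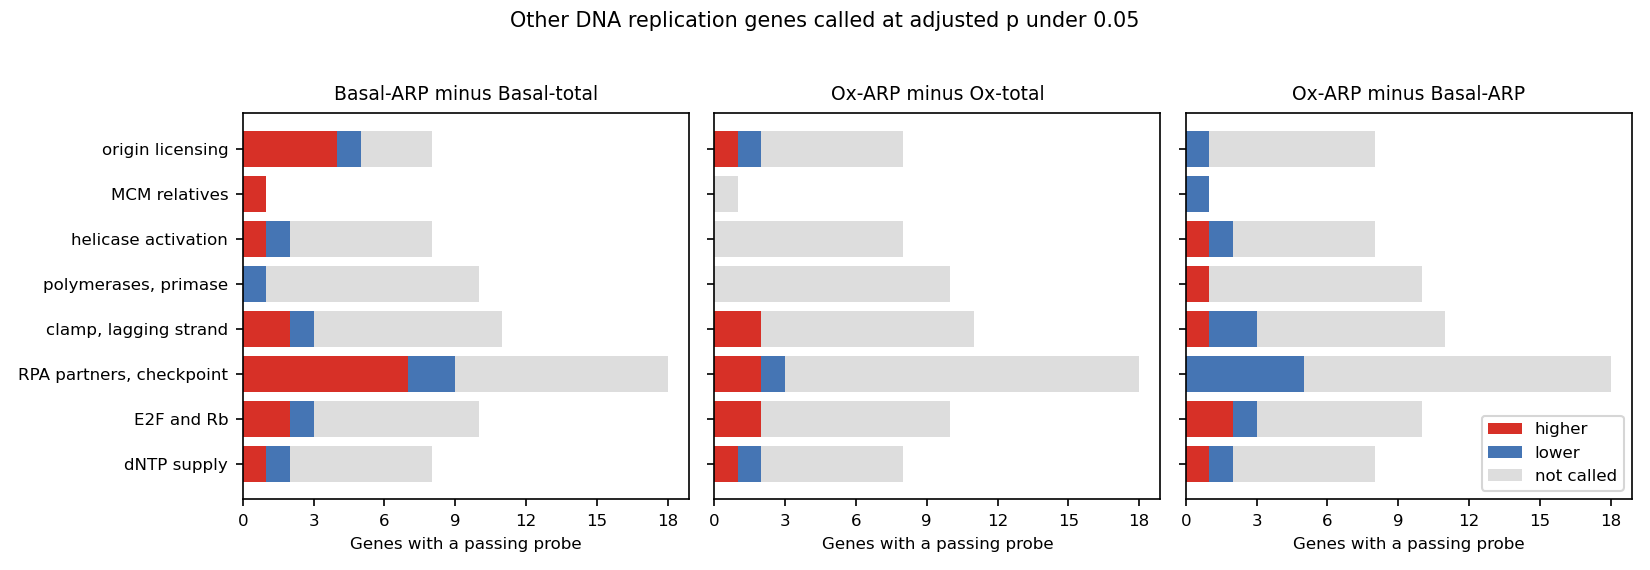
Number of genes with a passing probe (horizontal axis) in each of 8 lists of DNA replication genes, split into called higher, called lower and not called, for the 3 comparisons that involve captured RNA. The RPA partner and checkpoint list has 7 higher and 2 lower of 18 on the left and 0 higher and 5 lower on the right. Of all genes 16.2% were higher and 15.9% lower on the left, and 13.9% and 13.3% on the right.

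The proliferation markers with a passing probe were Birc5, Cdk1 and Top2a (all 3 matched to a probe, of 6 listed). Their summed normalized intensity was 8281 to 8593 in Basal-total, 8720 to 9198 in Ox-total, 10334 to 11037 in Basal-ARP and 8098 to 8938 in Ox-ARP. Top2a is also counted in the replication lists. Captured RNA of untreated cells held the highest sums. Mcm7, Mcm4 probe 1, Mcm5 and Mcm6 probe 1 also had their highest mean there, as had Mcm4 probes 2 and 3, which the filter required. Of the former only Mcm7 passed the limma test between Basal-ARP and Ox-ARP (adjusted p = 2.69e-05). Mcm4 probe 1, Mcm5 and Mcm6 probe 1 did not (adjusted p = 0.0776, 0.574 and 0.914). By group mean Mcm2 was lowest in Basal-ARP, and Mcm2, Mcm6 probes 2 and 3, Rpa1 and Rpa2 probe 2 were highest in Ox-ARP. The other members were highest in a total group. The part of these markers in the differences was not tested.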

How the data were processed

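The deposited scanner table holds bead intensity per probe and array without normalization. Beside each value the authors deposited a detection p-value. The submitters' processing notes name GenomeStudio 2010.2. The authors' second deposited table holds processed intensity on a linear scale. Each of its columns was a linear function of the scanner signal with a mean of 376, medians ran from 12.3 to 16.3, and 28.2% of values lay below 0. Its method is not given in the sources used here, and it served as an alternative (floor of 1, log2).

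Intensities were background corrected (normexp, control distribution estimated from detection p-values, offset 16), quantile normalized and taken to log2 with limma 3.58.1 (R 4.3.3). A probe passed where its detection p was under 0.01 on the 4 arrays of 1 or more groups, which left 10794 of 25697. The offset draws differences of dim probes towards 0, while the background correction enlarges them. For Prim1 in peroxide capture the difference was 0.53 as processed, 0.38 without background correction and 0.40 with an offset of 50. A mean per group was fitted over all 16 arrays with lmFit and eBayes (12 residual degrees of freedom, 5.44 prior), and p-values were adjusted by Benjamini-Hochberg over all passing probes, called under 0.05. Code was tested on simulated data. The number of arrays limits the precision.

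Symbols came from the platform annotation, which can be old: 23978 probes had 1 symbol, 0 several and 1719 none. By gene identifier, 23962 matched the RefSeq table of GRCm38.p6, and 8 of the 9 genes had a promoter window. Other genes were represented by their brightest passing probe. Named were all 15 MCM and RPA probes, and per list the 2 genes with the smallest p in each comparison of captured RNA, any gene called in the other comparisons, and the 5 genes most like Rpa3 and most like the MCM mean. Members and lists were chosen with earlier results of these data known. Alternatives covered normalization, background, filters, probe choice, blocks for replicate number and chip, each chip alone, array weights and leaving out each array. Replicate numbers, from the labels, paired the arrays in both capture comparisons, where all 4 same-numbered pairs of deviations correlated above 0.1 (0.28 to 0.64 without peroxide, 0.16 to 0.70 with it). They did not within captured RNA (lowest 0.02) or within total RNA (lowest -0.26). The labels give no reason for this, and the number also follows the chip.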

Additional observations from a re-analysis of the deposited data

Results flagged for a closer look

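On 3 occasions 1 array stood far from the other 3 of its group by Dixon's test, out of 60 groups of 4 arrays tested over the 15 probes, of which chance flags about 1 in 20. Mcm2 stood at 10.23 on Basal-total replicate 3, where the others lay between 10.60 and 10.67. Mcm3 stood at 8.86 on that same array, where the others lay between 9.09 and 9.11. Mcm6 probe 4 stood at 4.75 on Ox-ARP replicate 1, with the others between 5.34 and 5.41, and it was not detected on any array of that group. Without Basal-total replicate 3, the untreated capture difference of Mcm2 was called.

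The capture difference changed with peroxide, by the interaction test, for Mcm7 (-0.97) and for Mcm4 probe 3 (-1.05). Mcm4 probe 3 was detected on the 4 Basal-ARP arrays and on no other and passed the detection filter only through them, so no change is read from its value.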

How the results depend on the processing

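No call of an MCM or RPA probe turned its sign under any alternative. Of 2340 single values for these probes under an alternative, 2198 kept their side of the threshold, 96 lost a call and 46 gained one, while 109 uncalled values changed sign. The count in unselected RNA was 0 throughout. The cause of the other moves was not tested, except that single chips hold fewer arrays and the gene-level settings fewer tests.

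The counts out of 15 given here include Mcm4 probes 2 and 3, which passed the detection filter only through Basal-ARP. For untreated capture the count of 7 called of 15 probes became 1 without normalization and 2 on either chip alone. With 1 probe per gene or the mean of a gene's probes, 4 of 9 were called. For peroxide capture 5 of 15 became 3 with median scaling, 1 without normalization, and 3 and 1 on chips 1 and 2. With 1 probe per gene or the mean it was 3 of 9. For peroxide within captured RNA 7 of 15 became 4 without normalization, 3 and 4 on the chips, and 4 to 7 with 1 array left out (4 without Basal-ARP replicate 3 or Ox-ARP replicate 4). It was 4 of 12 with detection on all 16 arrays, 3 of 9 with 1 probe per gene and 4 of 9 with the mean. For the interaction 2 of 15 became 1 with median scaling or without a filter, and 0 without normalization and on either chip. It was 1 of 12 with detection on all arrays and 1 of 9 with 1 probe per gene. The count was 4 with the replicate block, with chip as a fixed or random block and with array weights, and 1 to 3 with 1 array left out (1 without Ox-ARP replicate 2 or 4).

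The replicate block gave 9, 7 and 8 called probes in the 3 comparisons of captured RNA. It called 4571, 3927 and 4298 of all 10794 probes there. Without Mcm4 probes 2 and 3 it gave 5 higher and 2 lower of 13, then 4 and 3, and 2 and 4. It changed the calls printed in the report, added Mcm4 probe 1 within captured RNA (adjusted p = 0.032) and Mcm4 probe 2 in the interaction, and ended no call of these probes. Over all probes, 3437, 2917, 3152 and 272 calls in untreated capture, peroxide capture, peroxide within captured RNA and the interaction became 1036, 715, 1315 and 1 without normalization, and the interaction rose to 1038 with the replicate block. Median scaling moved the median of all probes within captured RNA to 0.13 and its calls from 1494 higher and 1658 lower to 2339 and 812. In untreated capture it gave 991 higher and 1580 lower in place of 1799 and 1638. The same alternatives were run on the other replication genes, a step added after seeing the data, and 1 called value changed sign there: Mcm10 in peroxide within captured RNA went to 0.00339 without normalization.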
